A study of Mus musculus with 16 samples.

Results

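Thymosin β4 (Tβ4) and thymosin β10 (Tβ10) were compared directly, by setting the 4 libraries from cultures labelled as given Tβ4 against the 4 labelled as given Tβ10. These 8 of the 16 libraries were taken from the treatment named in the labels, and every gene in the table was considered. All cultures were primary neurons, prepared from brain at postnatal day 0 with C57BL/6 given as the genotype. The remaining libraries were 4 of a control that received DPBS, a phosphate-buffered saline, and 4 of another peptide, NP24, and they did not enter the comparison. The series' title places the peptides among products of the subcommissural organ, a gland at the back of the brain's ventricular roof that secretes into the cerebrospinal fluid. The labels state neither dose nor exposure time, and they do not say that the replicates were separate cultures, so each p measures only the spread between these libraries, which may be technical.

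The β-thymosins are short, closely related peptides that bind actin monomers and so set how much actin is free to polymerise. Actin monomers also hold the coactivators MRTF-A and MRTF-B in the cytoplasm, and the fall of the monomer pool lets them enter the nucleus and act with serum response factor (SRF) on genes for contractile and matrix-associated proteins. Tβ4 and Tβ10 are abundant in the developing brain, where neurons themselves transcribe both genes, and added peptide has been studied for effects on wound repair, blood vessels and inflammation.

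Of 22277 tested genes, 77 (0.346%) differed between the peptides at a limma adjusted p under 0.05, of which 70 (0.314%) were higher with Tβ4 and 7 (0.0314%) were lower. The genes higher with Tβ4 included collagens and other matrix genes, smooth muscle and pericyte genes, targets of SRF and YAP, immediate early genes of neuronal activity, and a few stress response and macrophage genes. The 7 lower genes were Dclk3, Ajap1, Sla, Tg, Prss12, Mmp17 and Jakmip1. In 63 of the 77 genes the difference was over 2-fold, and in all 77 the 4 Tβ4 libraries did not overlap the 4 Tβ10 libraries, which was so for 1532 (6.88%) of all tested genes. The calls rest on the same 8 libraries, so the lack of overlap in the 77 is not separate support. At an unadjusted p under 0.05 there were 2272 genes (10.2%), with 6.51% of tested genes higher with Tβ4 and 3.69% lower. In 6 of the 77, no Tβ10 library reached 10 normalized counts, so they met the minimum for testing through the Tβ4 libraries alone and had to differ. Of these, the genes named below are given by their values, without their p. The number of calls depended strongly on single libraries. Leaving out Tβ4 library 1, 2, 3 or 4 gave 5, 373, 60 and 1 calls, and leaving out Tβ10 library 1, 2, 3 or 4 gave 18, 52, 6 and 10. Of the 77 genes, 1 passed in all 8 of these fits, 17 passed in at least 4 and 76 in at least 1. When values were rescaled to equal totals per library, 60 genes passed, 44 higher and 16 lower, and the median of all genes moved from 0.00 to -0.19 on the log2 scale, so directions below are relative to the deposited scaling.

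**Figure D1:**
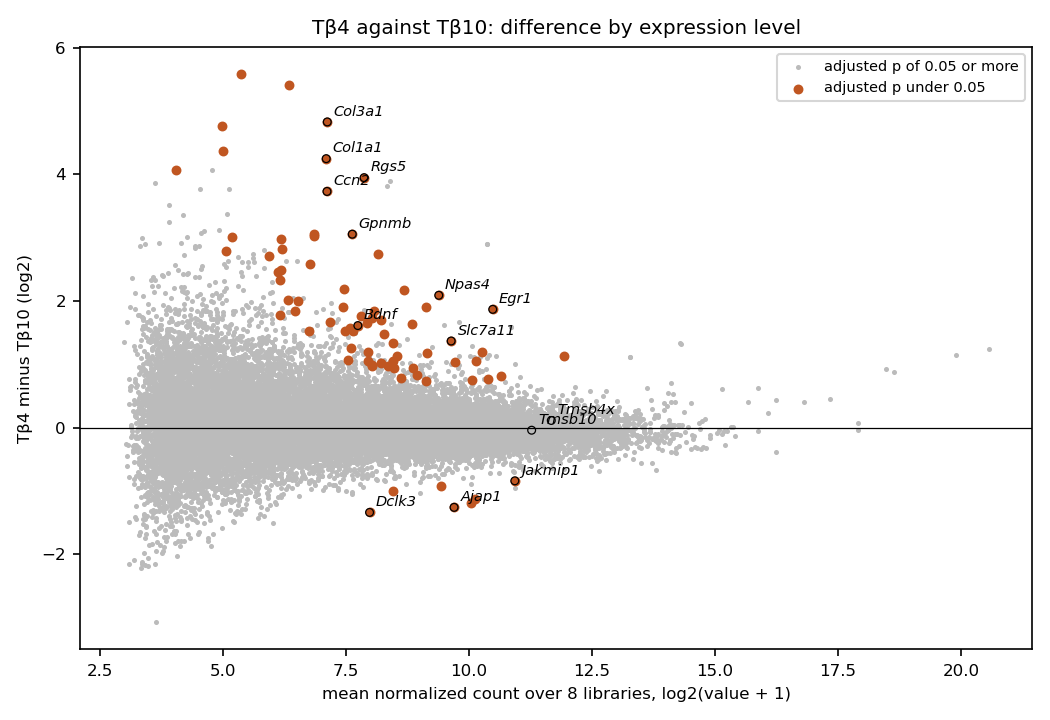
Difference between Tβ4 and Tβ10 (log2 of the normalized count plus 1, vertical axis) against the mean normalized count over the 8 libraries (log2, horizontal axis), 1 point per tested gene. The 77 genes with an adjusted p under 0.05 are coloured, 70 above the zero line and 7 below it, and Tmsb4x and Tmsb10, which code for the peptides, are near zero.

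**Figure D2:**
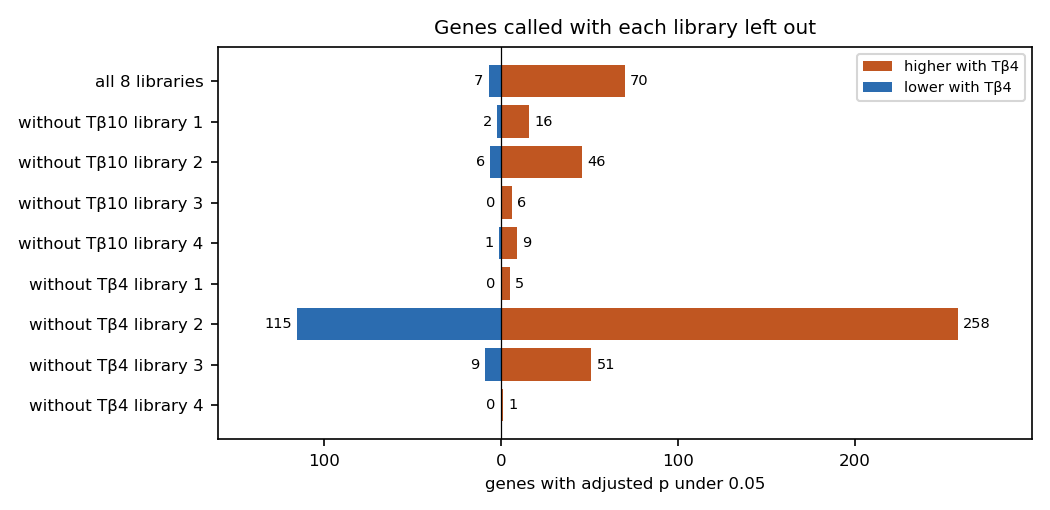
Number of genes with an adjusted p under 0.05 in the fit of all 8 libraries and in each fit that leaves out 1 library, with genes higher with Tβ4 to the right and lower to the left. The fit without Tβ4 library 2 made 373 calls and the fit without Tβ4 library 4 made 1.

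The 8 libraries held 11642242 to 38254320 reads in genes and 30118 to 38072 detected genes. No difference was detected in either measure (exact two-sided permutation test, n = 4 per group, p = 0.971 for reads and p = 0.686 for genes, adjusted p = 0.971 and 0.952 over 4 measures). Mitochondrial ribosomal RNA (mt-Rnr1 plus mt-Rnr2) made up 15.3 ± 6.71% of reads with Tβ4 (mean ± SD, n = 4, range 8.25 to 24.3%) and 7.20 ± 1.96% with Tβ10 (4.76 to 9.53%), with an exact permutation p of 0.0571 and an adjusted p of 0.229, where the smallest p that 4 against 4 allows is 0.0286. The difference of 8.11 percentage points was 5.11 without Tβ4 library 1. Tβ4 library 1 had the highest share and also stood apart on the first principal component, which carried 28.7% of the variance. The root mean square log2 distance averaged 0.884 between libraries of different peptides, 0.745 within Tβ10 and 0.939 within Tβ4, so over all genes the Tβ4 libraries differed from each other by more than they differed from the Tβ10 libraries. The mitochondrial ribosomal RNA share was mostly higher with Tβ4, so a fit with it as a covariate can separate it from the peptide only in part. In that fit 1 of the 77 genes passed, and the part of the share was not tested.

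That gene was Npas4 (chromosome 19, 4984355 to 4990316, minus strand, GRCm38), which codes for a transcription factor induced by calcium entry in active neurons. Its normalized counts were 1362, 886, 1092 and 1004 in Tβ4 libraries 1 to 4 and 235, 236, 294 and 244 in Tβ10 libraries 1 to 4. The lowest Tβ4 library was more than 3 times the highest Tβ10 library, and the control libraries, at 531 to 894, were above every Tβ10 library and overlapped the Tβ4 range. The difference was 2.09 ± 0.16 (SE) on the log2 scale, a 4.26-fold change with a limma adjusted p of 0.000372. Npas4 passed in every alternative fit of the comparison, where its log2 difference ranged from 1.80 to 2.18.

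The genes that code for the peptides did not differ beyond the spread of the libraries. Tmsb4x (chromosome X, 167207093 to 167209315, minus strand), which codes for Tβ4, stood at 4446, 1739.5, 4384 and 3059 normalized counts with Tβ4 and 1911, 4797, 3320.1 and 2489.8 with Tβ10. Tmsb10 (chromosome 6, 72957347 to 72958748, minus strand), which codes for Tβ10, stood at 3372, 1133, 3292 and 2166 with Tβ4 and 1475, 3566, 2364 and 2452 with Tβ10. Both genes overlapped widely between the groups. The log2 difference was 0.11 ± 0.32 (SE) for Tmsb4x, with a 95% interval of -0.58 to 0.81 and a limma adjusted p of 0.955. For Tmsb10 it was -0.04 ± 0.33 (SE), with an interval of -0.77 to 0.69 and a limma adjusted p of 0.988. The sign of the Tmsb4x difference turned in 6 alternative fits and that of Tmsb10 in 5, so no direction is given for either. Added peptide is not RNA and these counts do not measure it.

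Among the β-thymosins and other proteins that bind actin monomers, 17 of 19 genes were tested and none passed in either direction. Their median log2 difference was 0.00, beside 0.00 over all tested genes, and in 16 of 17 the 95% interval lay within 1 on the log2 scale on both sides, which was so for 59.0% of all tested genes. The members with the smallest p included Cap2, which recycles cofilin-bound actin, at 0.37 ± 0.15 (SE) with a limma adjusted p of 0.425, and Cobl, an actin nucleator of dendrites, at -0.45 ± 0.16 (SE) with a limma adjusted p of 0.312. The 32 regulators of actin filaments likewise had no member that passed, with a median of -0.04. Gsn, the filament-severing protein gelsolin, was at 0.58 ± 0.26 (SE) (limma adjusted p 0.463), and Tmod2, a neuronal cap of filament ends, was at -0.31 ± 0.17 (SE) (limma adjusted p 0.603).

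SRF and MRTF target genes included 5 of 18 tested that were higher with Tβ4, beside 0.314% of all tested genes. None was lower, and the median log2 difference was 0.47. The 5 were Ccn2, Acta2, Myl9, Ccn1 and Tagln, of which Myl9 met the minimum for testing through the Tβ4 libraries alone, and 8 of the 18 had no overlap between the groups in the direction of Tβ4, beside 4.17% of all tested genes. Ccn2 (chromosome 10, 24595442 to 24598683, plus strand), a secreted matricellular protein and a target of both MRTF and YAP, stood at 408, 128, 248 and 243 normalized counts with Tβ4 and 14.5, 35.5, 15.3 and 10.2 with Tβ10. Every Tβ4 library was above every Tβ10 library, and the controls held 49.6 to 79.1. The difference was 3.73 ± 0.43 (SE), a 13.3-fold change with a limma adjusted p of 0.00778, and the call held in 7 of 8 fits with a library removed. Of its exon sequence, 23.2% is shared with Gm15270 on the other strand, so reads of the pair cannot be told apart where counting ignored strand.

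Ccn1, the close relative of Ccn2, stood at 374, 176, 327 and 284 with Tβ4 and 41.8, 84.3, 68.5 and 56.3 with Tβ10. Its difference was 2.18 ± 0.29 (SE), 4.55-fold, with a limma adjusted p of 0.0115. Acta2, smooth muscle α-actin, stood at 306, 128, 187 and 189 with Tβ4 and 21.4, 49.9, 24.3 and 10.2 with Tβ10. The groups did not overlap in either gene, and Tβ4 library 1 was the highest in both. The Acta2 difference was 3.02 ± 0.44 (SE), 8.13-fold, with a limma adjusted p of 0.017. Myl9, a regulatory light chain of myosin, read 102, 51.1, 53.8 and 49.7 with Tβ4 and 9.11, 7.77, 8.11 and 3.41 with Tβ10. Tagln, a smooth muscle actin-binding protein described after its values were seen, was at 1.53 ± 0.28 (SE) (limma adjusted p 0.0397), but 62.4% of its exon sequence lies in Gm48529 on the other strand. The Tagln call held in 1 of 8 fits with a library removed. Without Tβ4 library 1, Myl9 was not tested, 1 of the remaining 17 passed and the median was 0.39. Acta2, Myl9 and Tagln are also genes of mural cells and fibroblasts, and the summed fibroblast markers were 3095 to 5863 normalized counts with Tβ4 against 1747 to 2213 with Tβ10. The part of such cells in the result for SRF and MRTF targets was not tested. Yap1 and Wwtr1, which code for the coactivators YAP and TAZ and were chosen after their values were seen, were also higher with Tβ4, at 0.97 ± 0.16 (SE) (limma adjusted p 0.0249) and 0.94 ± 0.16 (SE) (limma adjusted p 0.0317). Each of these calls held in 2 of 8 fits with a library removed.

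The upstream sequences of Myl9, Acta2 and Ccn1 are shown because these are the SRF and MRTF targets that passed and are in RefSeq's promoter table (GRCm38.p6), 15 of the 18 having an entry and Ccn2, Tagln and Tgfb1i1 not. Each run gives the 250 bases before RefSeq's annotated start, 5′ to 3′ on the gene's strand. The positions are chr2:156775214-156775463 (plus) for Myl9, chr19:34255374-34255623 (minus) for Acta2 and chr3:145649986-145650235 (minus) for Ccn1. GENCODE M21 puts the start of Acta2 at 34255590 and that of Myl9 at 156775420. Most of the Acta2 run and the end of the Myl9 run therefore lie within the GENCODE genes. Capitals mark exact matches only. In Myl9 this is the CArG box, a pattern SRF binds, searched as CCWWWWWWGG with W for A or T. Sequences that differ from it by a letter were not searched. In the others it is GGAATG or its reverse complement CATTCC, the letters TEAD partners of YAP bind.
Myl9: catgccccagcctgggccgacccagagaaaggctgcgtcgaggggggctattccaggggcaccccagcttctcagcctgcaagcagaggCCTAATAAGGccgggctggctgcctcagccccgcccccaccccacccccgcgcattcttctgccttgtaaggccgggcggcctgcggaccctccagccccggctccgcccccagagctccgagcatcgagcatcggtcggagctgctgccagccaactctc
Acta2: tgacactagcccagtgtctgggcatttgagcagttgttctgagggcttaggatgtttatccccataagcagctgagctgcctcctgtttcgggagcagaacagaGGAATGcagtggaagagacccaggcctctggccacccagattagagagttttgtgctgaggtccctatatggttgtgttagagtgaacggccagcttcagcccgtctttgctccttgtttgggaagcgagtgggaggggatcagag
Ccn1: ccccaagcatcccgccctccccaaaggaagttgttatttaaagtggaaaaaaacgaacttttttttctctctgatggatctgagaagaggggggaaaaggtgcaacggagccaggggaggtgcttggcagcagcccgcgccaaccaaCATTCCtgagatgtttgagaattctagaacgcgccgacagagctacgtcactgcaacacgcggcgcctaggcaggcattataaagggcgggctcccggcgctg
The CArG box of Myl9 begins 161 bases before the start. GGAATG begins 146 bases before the start in Acta2, and it lies on the opposite strand in Ccn1, from 103 bases before the start.

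In all, 5 motifs were searched on both strands of the 250 upstream bases, and all but the CArG box were picked after gene values had been seen. The CArG box was in 40.0% of the 15 SRF and MRTF target promoters, in 2.0% of the 50 promoters found for the 70 genes higher with Tβ4, and in 1.62% of all 27025 promoters. GGAATG was in 33.3%, 26.0% and 14.4% of the same sets. TGACTCA, the AP-1 site, was in 6.67%, 4.0% and 5.16%, and TGACGTCA, the CREB site, was in 0%, 0% and 1.77%. CGTGAC, a site of bHLH-PAS factors such as Npas4, was in none of the first set, 8 of 50 in the second and 7.93% of all promoters. None of these motifs contains another, and a match is a description of the sequence, not a binding site. Only exact matches were counted, so a promoter without a match is not shown to lack a site.

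Immediate early genes are transcribed by neurons within minutes of activity or growth factor signals. Of 21, 4 were higher with Tβ4, beside 0.314% of all tested genes, and none was lower. The 4 were Npas4, Egr1, Nr4a3 and Fos. The list's median log2 difference was 0.76, 19 of the 21 differences were positive, and 10 of 21 had no overlap in the direction of Tβ4, beside 4.17% of all tested genes. Egr1, a zinc finger transcription factor, stood at 2927, 1455, 2491 and 2113 normalized counts with Tβ4 and 378, 793, 589 and 711 with Tβ10. The lowest Tβ4 library was above the highest Tβ10 library, and the controls held 1696 to 1967. Its difference was 1.87 ± 0.25 (SE), 3.65-fold, with a limma adjusted p of 0.0115.

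Fos, the AP-1 subunit, stood at 1074, 486, 723 and 505 with Tβ4 and 124, 291, 208 and 264 with Tβ10. Nr4a3, an orphan nuclear receptor, stood at 4870.2, 7038, 4973 and 4685 with Tβ4 and 1947, 2979, 2604 and 2343 with Tβ10. Neither gene overlapped between the groups, and Tβ4 library 1 was highest for Fos while Tβ4 library 2 was highest for Nr4a3. The differences were 1.64 ± 0.30 (SE) for Fos (limma adjusted p 0.0397) and 1.12 ± 0.17 (SE) for Nr4a3 (limma adjusted p 0.0204). The Fos call held in 1 of 8 fits with a library removed and that of Nr4a3 in 3. Leaving out 1 library gave between 1 and 8 calls in the list, and without Tβ4 library 1 only Npas4 of the list remained past the threshold. The promoter of Npas4 (chr19:4989972-4990221, minus strand, GRCm38.p6) is shown because Npas4 was the gene that passed in every fit. Capitals mark the reverse complement of CGTGAC, from 178 bases before RefSeq's start. In GENCODE M21 Npas4 starts at 4990316, so this whole run lies within the gene as placed above.
Npas4: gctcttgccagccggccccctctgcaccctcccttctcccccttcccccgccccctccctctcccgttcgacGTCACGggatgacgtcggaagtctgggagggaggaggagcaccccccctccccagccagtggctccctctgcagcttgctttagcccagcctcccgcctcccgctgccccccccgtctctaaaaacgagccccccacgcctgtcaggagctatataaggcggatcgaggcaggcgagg
Of the 16 immediate early gene promoters in the table, CGTGAC was in 37.5%, GGAATG in 18.75%, TGACGTCA in 12.5%, the CArG box in 6.25% and TGACTCA in 0%, beside 7.93%, 14.4%, 1.77%, 1.62% and 5.16% of all promoters.

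**Figure D3:**
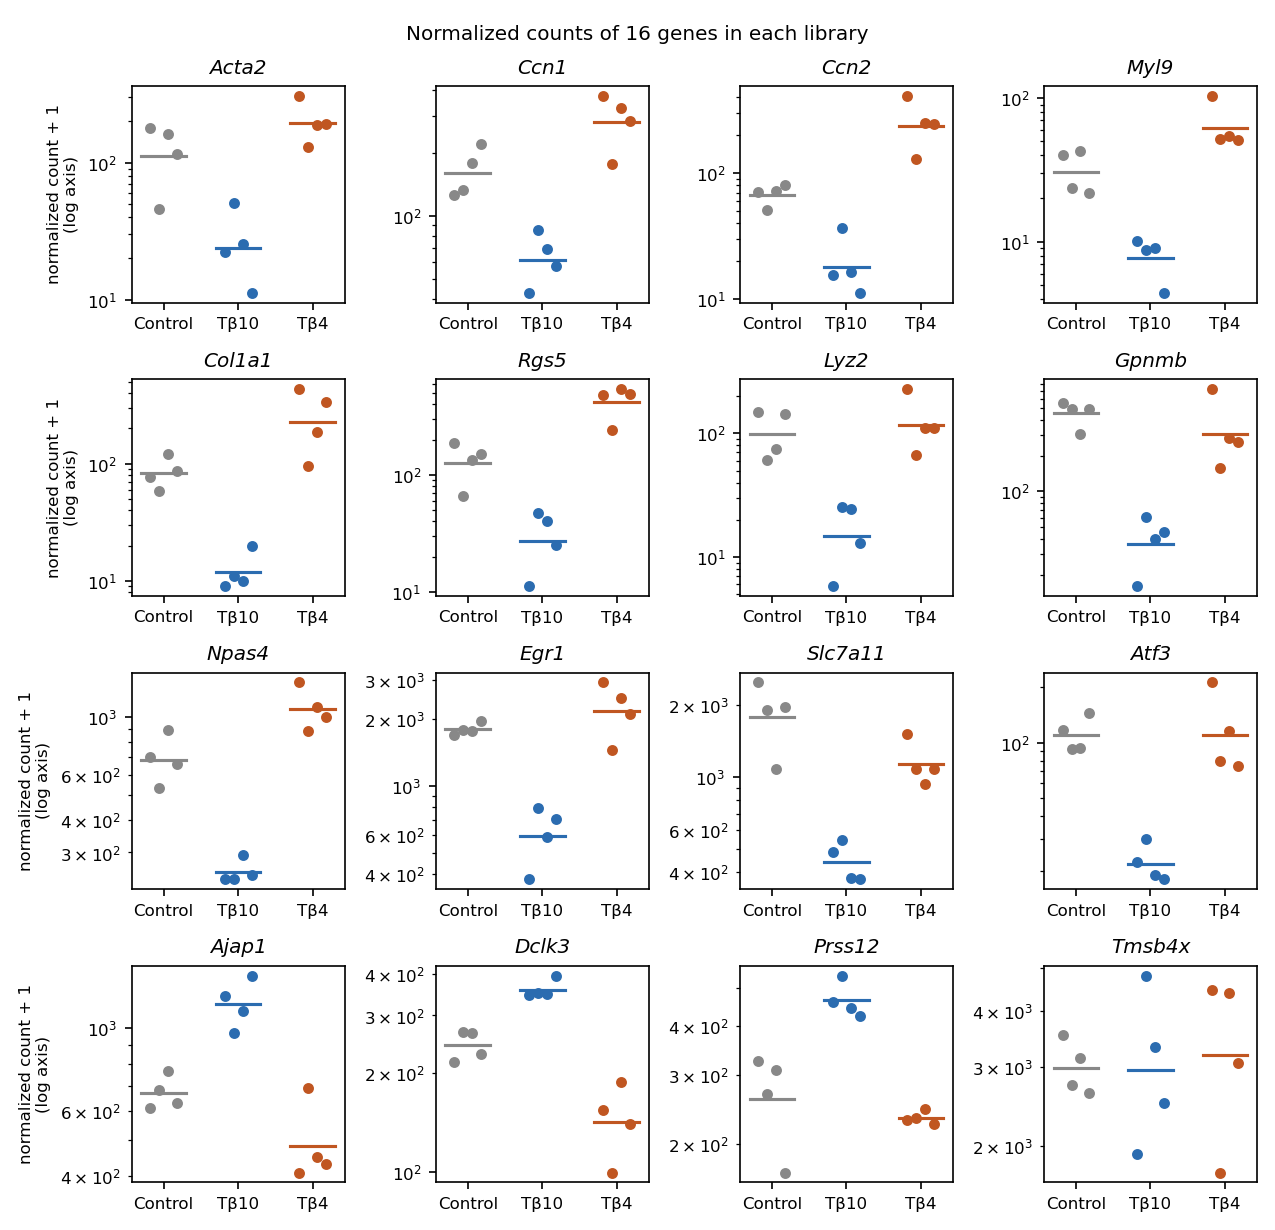
Normalized counts plus 1 (log axis) of 16 genes in each control, Tβ10 and Tβ4 library, 1 point per library, with a line at the geometric mean of each group of 4. The Tβ4 points lie above the Tβ10 points from Acta2 to Atf3, below them for Ajap1, Dclk3 and Prss12, and among them for Tmsb4x.

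Markers of fibroblasts and meninges held the largest share of calls, with 6 of 11 tested genes higher with Tβ4, none lower and a median log2 difference of 1.42. Over all tested genes, 0.314% were called higher with Tβ4. In bulk RNA, fewer cells of a type and less RNA per cell cannot be told apart, and this holds for every marker list here. Col1a1 (chromosome 11, 94936224 to 94953042, plus strand), a chain of type I collagen, stood at 432, 94.2, 185 and 334 with Tβ4 and 8.04, 9.98, 9.01 and 18.8 with Tβ10. Every Tβ4 library held several times the count of the highest Tβ10 library, and the controls, at 58.05 to 119, lay above all Tβ10 libraries. The difference was 4.25 ± 0.47 (SE), 19.01-fold, with a limma adjusted p of 0.00732, and the call held in 7 of 8 fits with a library removed. Col3a1, type III collagen, stood at 467, 116, 266 and 218 with Tβ4 and 4.29, 19.97, 15.3 and 1.71 with Tβ10. Its difference was 4.83 ± 0.64 (SE), 28.4-fold, with a limma adjusted p of 0.0115. Tβ4 library 1 was the highest of the 8 in both collagens.

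Among the other fibroblast markers, Col1a2 was at 3.06 ± 0.50 (SE) (limma adjusted p 0.0249), with 84.02 to 390.2 normalized counts with Tβ4 and 9.65 to 31.1 with Tβ10. Bgn, the matrix proteoglycan biglycan, was at 2.74 ± 0.44 (SE) (limma adjusted p 0.0246), with 210.1 to 969 and 39.1 to 109. Fn1, fibronectin, was the most abundant of the list, at 2267, 1777, 1963 and 2183 with Tβ4 and 1074, 1245, 1078 and 1236 with Tβ10. It did not overlap between the groups, with a 1.76-fold difference at 0.82 ± 0.13 (SE) (limma adjusted p 0.0214). Aebp1, a collagen-binding secreted protein also described after its values were seen, was at 2.46 ± 0.44 (SE) (limma adjusted p 0.0369). The Aebp1 call held in 1 of 8 fits with a library removed and that of Bgn in 2. Dcn, Lum and Slc6a13 did not reach the minimum for testing, and Lum was at 0 in 2 of the Tβ10 libraries and in all 4 controls. Summed over the 14 markers, the level was 3095 to 5863 with Tβ4, 1747 to 2213 with Tβ10 and 2423 to 3071 in controls. Without Tβ4 library 1, 1 of 11 passed and the median was 1.31.

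Markers of endothelium and pericytes were thinner, with 7 of 14 tested, 2 higher with Tβ4 (beside 0.314% of all tested genes) and a median of 1.20. Both that passed mark pericytes and mural cells. Rgs5 (chromosome 1, 169655501 to 169695813, plus strand), a regulator of G-protein signalling, stood at 478, 242, 539 and 485 with Tβ4 and 10.2, 46.6, 39.6 and 23.9 with Tβ10. Pdgfrb, the PDGF receptor β, stood at 618, 293, 268 and 531 with Tβ4 and 108, 90.97, 121 and 128 with Tβ10. Neither overlapped between the groups. The differences were 3.95 ± 0.43 (SE) for Rgs5 (limma adjusted p 0.00732) and 1.84 ± 0.27 (SE) for Pdgfrb (limma adjusted p 0.018). The endothelial adhesion molecule Pecam1, at 1.10 ± 0.48 (SE), did not pass (limma adjusted p 0.448). The pericyte channel subunit Abcc9 read 227, 36.3, 32.4 and 11.8 with Tβ4 and 8.04, 5.55, 12.6 and 22.2 with Tβ10, a difference of 1.90 ± 0.77 (SE) that did not pass (limma adjusted p 0.407), with Tβ4 library 1 far above the other 7. Cldn5 and Ly6c1, which define brain endothelium, were at 0 in all 4 Tβ10 libraries and reached at most 3.4 and 3.7 normalized counts with Tβ4. Among the 4 controls, Cldn5 was at 0 in 3 and Ly6c1 in all 4. The summed markers were 762 to 2102 with Tβ4, 243 to 356 with Tβ10 and 426 to 702 in controls. Without Tβ4 library 1, 1 of the 7 passed and the median was 0.80, and without Tβ4 library 4 none passed.

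Col6a3, a chain of type VI collagen, was at 2.82 ± 0.51 (SE) (limma adjusted p 0.0397), and the call held in 1 of 8 fits with a library removed. Several other matrix and basement membrane genes, chosen after their values were seen, were also higher with Tβ4 than with Tβ10. Sparc was at 1.91 ± 0.36 (SE), Col4a1 at 1.20 ± 0.18 (SE), Lama5 at 1.13 ± 0.16 (SE), Hspg2 at 1.20 ± 0.21 (SE), Col18a1 at 1.73 ± 0.29 (SE) and Loxl2, a collagen crosslinking enzyme, at 2.49 ± 0.43 (SE). Their limma adjusted p values were 0.0496, 0.0173, 0.0168, 0.0322, 0.029 and 0.0334. In the same order, the calls held in 1, 4, 3, 1, 2 and 2 of 8 fits with a library removed. The control level lay at different places between the peptides, and for Lama5 the controls held 369 to 583 normalized counts, overlapping the 428 to 596 with Tβ4 and above the 212 to 242 with Tβ10. Col5a2, a fibrillar collagen, Igfbp7, a secreted protein of vessels, and Ddr2, a collagen receptor, were picked in the same way, at 1.66 ± 0.26 (SE), 2.59 ± 0.39 (SE) and 1.34 ± 0.21 (SE) (limma adjusted p 0.022, 0.0181 and 0.0204), as were Ahnak and Mgp. Ahnak, a large scaffold protein, read 1240.1, 517, 488 and 487 with Tβ4 and 132, 153, 139 and 131 with Tβ10, a difference of 2.17 ± 0.27 (SE) (limma adjusted p 0.0115). In Col5a2, Igfbp7, Mgp and Ahnak, Tβ4 library 1 stood far above the other 3 Tβ4 libraries, and the remaining 3 were still above every Tβ10 library. Mgp, matrix Gla protein, read 217, 23.8, 53.8 and 26.03 with Tβ4 and 0.536, 0, 0 and 0 with Tβ10, so a fold is not given.

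Microglia and macrophage markers had a median log2 difference of 2.05 over 13 tested genes, and 12 differences were positive. In 8 the groups did not overlap, in the direction of Tβ4, beside 4.17% of all tested genes. Of the 13, 1 passed, beside 0.314% of all tested genes called higher. Without Tβ4 library 1 none passed and the median was 1.71. The gene that passed was Lyz2, lysozyme of myeloid cells, at 227, 65.9, 109 and 109 with Tβ4 and 4.82, 24.4, 23.4 and 11.9 with Tβ10. The groups did not overlap, and the control range of 59.9 to 146 overlapped that of Tβ4. Its difference was 2.99 ± 0.53 (SE), 7.92-fold, with a limma adjusted p of 0.0362, and the call held in 2 of 8 fits with a library removed. Laptm5, C1qc and Ctss differed by 2.82, 2.62 and 2.05 without passing (limma adjusted p 0.0857, 0.0944 and 0.102). Cx3cr1, a defining receptor of microglia, did not follow them and was at 1249 to 1493 with Tβ4 and 1190 to 1602 with Tβ10. The groups also overlapped in P2ry12, another microglia marker, at 214 to 500 with Tβ4 and 295 to 367 with Tβ10. Tmem119 was at 0 in all 4 Tβ10 libraries and in 3 of 4 controls, and at most 10.3 with Tβ4. The summed list, of which Cx3cr1 was the largest member, was 2338 to 3634 with Tβ4, 1758 to 2198 with Tβ10 and 2153 to 2644 in controls. With the mitochondrial ribosomal RNA share as a covariate, no marker of microglia, fibroblasts or vessels passed, and the medians of these lists were 1.07, 1.07 and 0.66.

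Further genes of phagocytes were also higher with Tβ4. Gpnmb, a transmembrane glycoprotein of lysosome-rich cells, stood at 723, 157, 279 and 261 with Tβ4 and 15.01, 59.9, 38.7 and 44.3 with Tβ10. All Tβ10 libraries were also below the controls, which held 304 to 556, and so were Tβ4 libraries 2, 3 and 4. The difference was 3.06 ± 0.48 (SE), 8.31-fold, with a limma adjusted p of 0.0214. Myo1f, a myosin of leukocytes, was at 2.71 ± 0.41 (SE) (limma adjusted p 0.0192). Cybb, a subunit of the phagocyte NADPH oxidase chosen after its values were seen, was at 2.79 ± 0.47 (SE) (limma adjusted p 0.0289). The Cybb call held in 1 of 8 fits with a library removed. Itgax, an integrin of myeloid cells chosen in the same way, read 121, 36.3, 20.7 and 59.1 with Tβ4 and 0.536, 1.11, 9.01 and 0 with Tβ10. Gpnmb was the only lysosome gene of 24 that passed, beside 0.314% of all tested genes higher with Tβ4, and the list's median was 0.34. Lamp2, Ctsz and Ctsd were at 0.63, 0.92 and 1.09 without passing (limma adjusted p 0.066, 0.151 and 0.181).

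**Figure D4:**
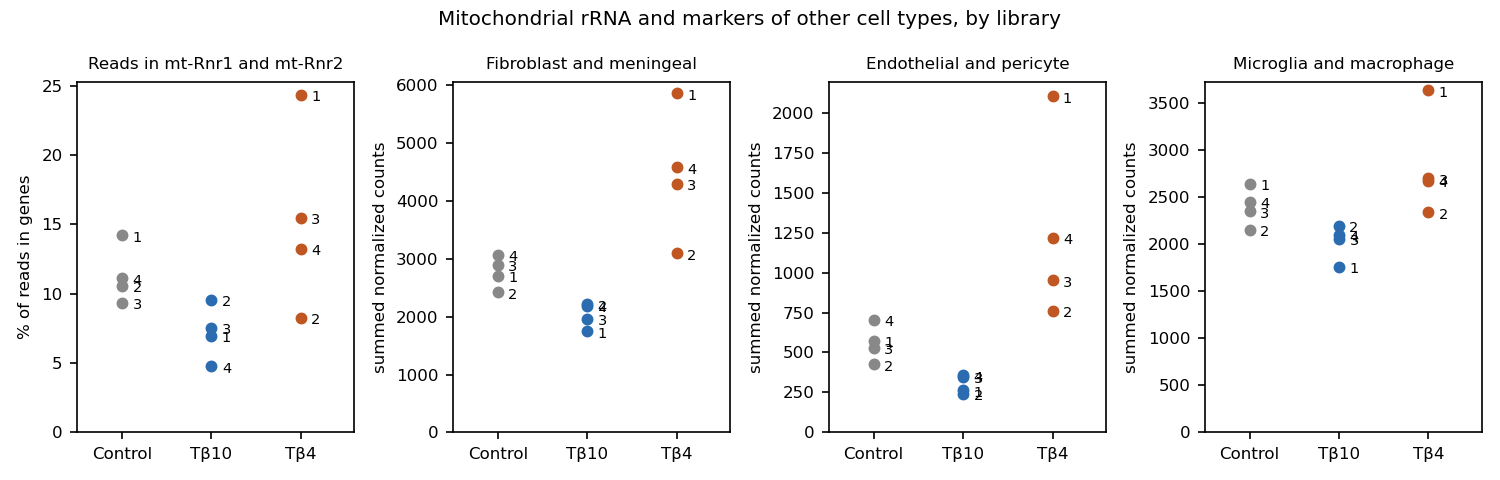
Share of reads in mt-Rnr1 and mt-Rnr2 (%, left) and summed normalized counts of the fibroblast and meningeal, endothelial and pericyte, and microglia and macrophage marker lists in each control, Tβ10 and Tβ4 library, numbered by replicate. Tβ4 library 1 is the highest Tβ4 library in the mitochondrial share at 24.3%, and the Tβ10 libraries sit below the Tβ4 libraries in each marker sum.

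Genes of the integrated stress response, through which cells answer amino acid shortage and misfolded protein, had 21 of 24 positive differences. The list's median was 0.63 and 2 passed. Of 22 NRF2 targets, 1 passed at a median of 0.28, and 0.314% of all tested genes were called higher with Tβ4. Slc7a11 (chromosome 3, 49892526 to 50443614, minus strand), the cystine and glutamate exchanger, stood at 1513, 1075, 935 and 1078 with Tβ4 and 484, 543, 377 and 372 with Tβ10. The groups did not overlap, and the controls, at 1074 to 2479.7, reached above both. Its difference was 1.37 ± 0.18 (SE), 2.58-fold, with a limma adjusted p of 0.0115. Atf3, a transcription factor induced by injury and stress, was at 2.33 ± 0.39 (SE) (limma adjusted p 0.029), with 73.3 to 212 normalized counts with Tβ4 and 17.1 to 28.8 with Tβ10. Hmox1, the heme oxygenase that NRF2 induces, was at 1.91 ± 0.35 (SE) (limma adjusted p 0.0397), and the gene of NRF2 itself, Nfe2l2, chosen after its values were seen, was at 1.48 ± 0.18 (SE) (limma adjusted p 0.0102). Eif4ebp1, a repressor of translation chosen in the same way, was at 1.53 ± 0.25 (SE) (limma adjusted p 0.0252). The calls of Atf3 and Hmox1 held in 2 of 8 fits with a library removed, that of Nfe2l2 in 5 and that of Eif4ebp1 in 1. Without Tβ4 library 1, no gene of either list passed. The 27 genes of apoptosis and p53 had 11 without overlap in the direction of Tβ4, beside 4.17% of all tested genes, and none that passed, and its members with the smallest p, Eda2r and Cdkn1a, were at 1.12 and 1.02 (limma adjusted p 0.0505 and 0.0811).

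Among neurotrophins and their signalling genes, 1 of 18 was higher with Tβ4, beside 0.314% of all tested genes, and the median was -0.02. It was Bdnf, the brain-derived neurotrophic factor, at 257, 455, 323 and 259 with Tβ4 and 85.8, 116, 111 and 98.9 with Tβ10. The groups did not overlap, with the difference at 1.61 ± 0.22 (SE), 3.06-fold, and a limma adjusted p of 0.0143. Vgf, a peptide precursor regulated by neurotrophins, was 2.82-fold higher without passing (limma adjusted p 0.0857). Among angiogenic factors, which have been studied for Tβ4, none of 16 passed, and Vegfa and Nrp1 were at 0.66 and 0.59 (limma adjusted p 0.0732 and 0.104). Among 19 genes of integrin-linked kinase and focal adhesion, also none passed, and Itgav and Itga5 were at 0.70 and 0.89 (limma adjusted p 0.0569 and 0.182).

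Among the 7 genes lower with Tβ4, Ajap1 (chromosome 4, 153373221 to 153482811, minus strand), a junctional transmembrane protein, stood at 408, 688, 449 and 431 normalized counts with Tβ4 and 1216, 965, 1108 and 1378 with Tβ10. Every Tβ4 library was below every Tβ10 library, and the controls held 608 to 767. Its difference was -1.26 ± 0.18 (SE), 2.39-fold lower, with a limma adjusted p of 0.017. Dclk3, a doublecortin-like kinase, stood at 154, 98.8, 187 and 139.6 with Tβ4 and 344, 349, 347 and 396 with Tβ10, a difference of -1.34 ± 0.21 (SE) (limma adjusted p 0.0204). Prss12, a neuronal serine protease called neurotrypsin, was tight within Tβ4, at 229, 232, 244 and 224, and at 458, 536, 444 and 423 with Tβ10. It was 1.99-fold lower (limma adjusted p 0.018). Mmp17, a membrane-bound metalloproteinase, was at -0.92 ± 0.17 (SE) (limma adjusted p 0.0397).

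Jakmip1, a microtubule-associated protein of neurons, was at -0.84 ± 0.13 (SE) (limma adjusted p 0.022), and 46.9% of its exon sequence is shared with Gm1043 on the same strand. Sla, an adaptor of Src-family signalling, was at -1.20 ± 0.16 (SE) and Tg, thyroglobulin, at -1.13 ± 0.15 (SE) (limma adjusted p 0.0115 and 0.0115). Sla lies within Tg on the other strand, and although their exons do not overlap, the Tg to Sla ratio was 1.03 to 1.21 in all 8 libraries, so they may not be separate measurements, although each counts among the 7. Among these 7, the calls of Dclk3 and Jakmip1 held in 2 of 8 fits with a library removed and that of Sla in 5. Without Tβ4 library 1, Tβ4 library 4 or Tβ10 library 3, no gene was lower at the threshold.

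Lists of neuronal genes had no member that passed in either direction, with medians slightly below 0. The median was -0.23 for axon growth and guidance, -0.17 for the presynapse, -0.23 for the excitatory postsynapse, -0.20 for voltage-gated channels, -0.23 for cortical projection neuron markers and -0.18 for inhibitory neuron markers. The excitatory postsynapse had 19 of 22 differences negative and 6 of 22 without overlap in the lower direction, beside 2.71% of all tested genes, and the other 5 lists had 0 to 2. Summed over the postsynapse list, Tβ4 library 2 was at 218406, above the 133344 to 182078 with Tβ10. Tβ4 libraries 1, 3 and 4 were below that range, at 106837, 111774 and 123789. Voltage-gated channels also split, at 143836 in Tβ4 library 2 and 63213 to 78386 in Tβ4 libraries 1, 3 and 4. Tβ4 library 2 also had the steepest slope of level on exon length, 1.21, and its part was not tested. Camk2a, the postsynaptic kinase, was at -0.53 ± 0.13 (SE) (limma adjusted p 0.133), and Stx1a, a syntaxin of vesicle release, was at -0.51 ± 0.13 (SE) (limma adjusted p 0.147). Lhx6, an interneuron factor, and Bcl11b, a factor of deep layer neurons, were at -0.73 and -0.41 (limma adjusted p 0.115 and 0.273). In the cortical list 4 of 16 differences were positive, and Nfib, a transcription factor of developing cortex named after its values were seen, was at 15661 to 23177 normalized counts with Tβ4 and 12843 to 15403 with Tβ10, without overlap and without passing, at 0.39 ± 0.19 (SE) (limma adjusted p 0.515). Neuron markers were well expressed in every library, with a summed level of the cortical list of 72702 to 100779 with Tβ4 and 88936 to 91669 with Tβ10. In most of these genes the 95% interval lay within 1 on the log2 scale, in 29 of 34 for axon growth, 22 of 24 for the presynapse, 19 of 22 for the postsynapse, 22 of 24 for channels, 14 of 16 for cortical and 13 of 15 for inhibitory markers. With the mitochondrial share as a covariate the medians, in the order given above, were 0.01, -0.07, 0.03, 0.11, -0.11 and -0.17.

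The remaining lists had no member that passed. All 15 mitochondrially encoded genes had positive differences, with a median of 0.62, which became -0.13 with the mitochondrial ribosomal RNA share as a covariate. The 2 ribosomal RNAs that make up that share are among the 15. Cell cycle genes had 23 of 24 positive and a median of 0.41, with Mki67, the proliferation marker, at 0.50 ± 0.14 (SE) (limma adjusted p 0.195). Radial glia markers had a median of 0.34, astrocyte markers 0.24 and cholesterol synthesis genes 0.22. Nuclear genes of oxidative phosphorylation and genes of glycolysis were near 0, at 0.00 and 0.04. In the interferon and inflammatory lists, Irf1 was at 1.02 (limma adjusted p 0.282) and Lif, a cytokine near the limit of detection, was at 10.2 to 34.1 normalized counts with Tβ4 and 0 to 3.41 with Tβ10 (limma adjusted p 0.164). The cochaperone Bag3, the peroxiredoxin Prdx1, the glial factor Sox9 and the ribosomal protein Rps15 were among the members of their lists with the smallest p and did not pass, at 1.25, 0.72, 0.60 and 0.48 (limma adjusted p 0.102, 0.263, 0.316 and 0.666).

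**Figure D5:**
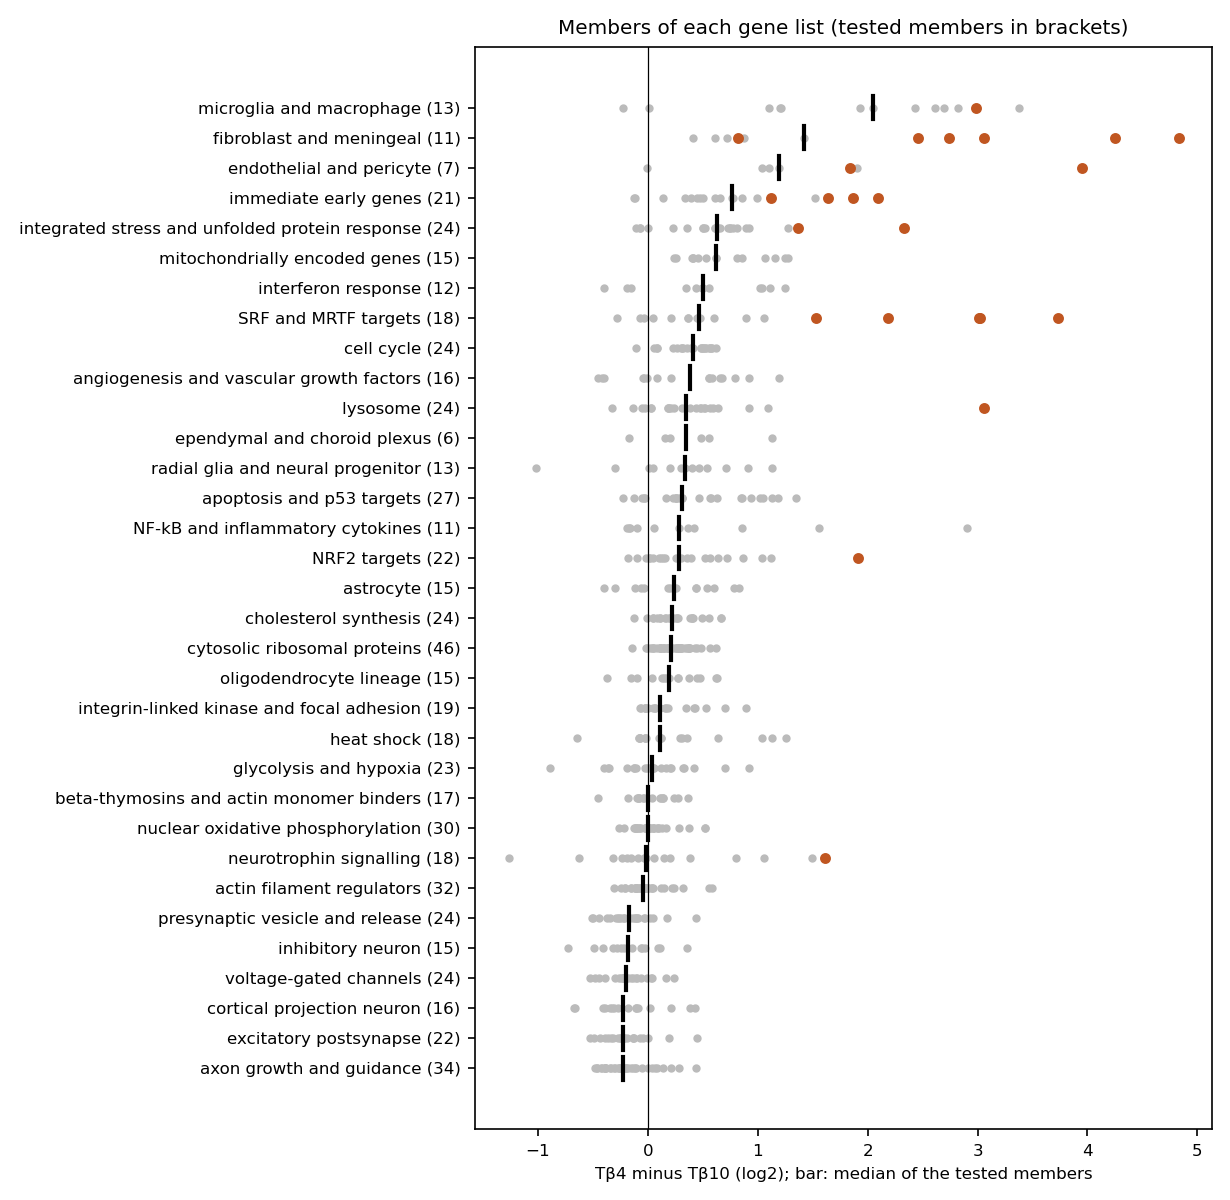
Difference between Tβ4 and Tβ10 (log2, horizontal axis) of every tested member of each gene list, ordered by the list's median (black bar), with genes at an adjusted p under 0.05 coloured and the number tested in brackets. The microglia, fibroblast and endothelial lists have the highest medians, at 2.05, 1.42 and 1.20, and the neuronal lists the lowest.

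The control libraries give the level without peptide, from 1 fit of all 16 libraries in which both differences share the controls. For fibroblast markers the median was 0.46 for Tβ4 minus control and -1.05 for Tβ10 minus control. For microglia markers the values were 0.71 and -1.25, and for endothelial and pericyte markers 0.88 and -0.97. For SRF and MRTF targets they were 0.09 and -0.56, for immediate early genes 0.27 and -0.54, and for stress response genes -0.19 and -0.80. In each of these 6 lists the Tβ10 median lay below control. The Tβ4 median lay above control in all but the stress list. These lists were already higher with Tβ4 than with Tβ10 in the same libraries, which partly fixes this order. Among other such lists, interferon genes were at 0.45 and -0.08, but cell cycle genes were at 0.48 and 0.10 and astrocyte markers at 0.37 and 0.12.

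Genes that differed between NP24 and control were also followed, since no Tβ4 or Tβ10 library took part in choosing them. Of 21774 tested genes, 572 (2.63%) differed with NP24 at a limma adjusted p under 0.05, 319 lower (1.47%) and 253 higher (1.16%). Of the 319 lower with NP24, 283 had positive Tβ4 minus Tβ10 differences, with a median of 0.54, and 38 were called higher with Tβ4, beside 0.314% of all genes tested. Of the 253 higher with NP24, 239 had negative differences, with a median of -0.30, and 5 were called lower with Tβ4, beside 0.0314% of all genes tested. Over all 22277 genes tested for Tβ4 against Tβ10, 11016 differences were positive and 11261 negative. The mitochondrial ribosomal RNA share was 5.98 to 8.12% with NP24 and 9.32 to 14.2% in controls. It thus also separated the libraries that chose these genes, and its part in the result was not tested.

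Several further genes that passed belong to no list and were chosen after their values were seen. Carmn, a long noncoding RNA of smooth muscle, read 78.04, 68.1, 24.1 and 69.8 with Tβ4 and 0.536, 0, 0.901 and 5.12 with Tβ10, so that it met the minimum for testing through the Tβ4 libraries alone. The imprinted genes H19 and Plagl1 were at 1.77 ± 0.32 (SE) and 0.83 ± 0.15 (SE) (limma adjusted p 0.0426 and 0.0476). Stat3, a cytokine-activated transcription factor, was at 0.77 ± 0.13 (SE) (limma adjusted p 0.032). Pdpn, podoplanin, and Ezr, ezrin, which links membrane proteins to actin, were at 1.70 ± 0.24 (SE) and 1.03 ± 0.16 (SE) (limma adjusted p 0.0143 and 0.0214). Plat, the tissue plasminogen activator, was at 0.79 ± 0.14 (SE) (limma adjusted p 0.0341), and Dusp10, a MAP kinase phosphatase, was at 1.06 ± 0.16 (SE) (limma adjusted p 0.0204). The calls of H19, Plagl1, Stat3 and Plat held in 1 of 8 fits with a library removed. Those of Ezr and Dusp10 held in 3 and that of Pdpn in 4.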

How the data were processed

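Total RNA of cultured mouse neurons was sequenced from libraries made with a SMARTer stranded kit, per the labels. Per the submitters' processing notes, the tools were FastQC, HISAT, HISAT2, featureCounts and DESeq2, with build GRCm38. Versions, annotation and strand setting are not given in the sources used here. The deposited values are signal, that is, gene counts divided by 1 size factor per library. Every nonzero value was a whole multiple of its library's step within 0.01 reads (100% of values), so reads could be recovered for count models. The 8 libraries held between 11642242 and 38254320 reads in genes.

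The 4 Tβ4 and 4 Tβ10 libraries were compared with limma-trend (limma 3.58.1, R 4.3.3) after adding 1 and taking log2. A gene was tested if 4 or more of the 8 libraries reached 10 normalized counts, with Benjamini-Hochberg adjustment over all tested genes and a threshold of 0.05. Fold changes are on that log2 scale and understate changes of low genes. The fit was checked on simulated data, with genes drawn independently and the same dispersion for every gene. That check does not address how far the calls depend on single libraries. Other settings tried were count models on recovered reads (edgeR 4.0.16, DESeq2 1.42.0), pseudocounts of 0.1 and 10, no filter, scaling to library size or by TMM, all 16 libraries in 1 fit, the replicate number as a block, array weights, covariates and leaving out each library.

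Named genes were Tmsb4x, Tmsb10 and, per direction, up to 12 with the largest difference among genes that passed, averaged 50 or more normalized counts and did not overlap between groups, leaving out unnamed gene models and pseudogenes. Up to 4 members of each of the 35 gene lists with the smallest p could be added, 1 gene that the rule names is not reported here, and other genes are said to be chosen after their values were seen. The members and lists were chosen with earlier results of these data known, so lists are described by counts and medians and carry no test. Positions are from GENCODE M21 (GRCm38), and promoters are RefSeq's (GRCm38.p6), whose starts differ for some genes. Peptide sequences were not used here.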

Additional observations from a re-analysis of the deposited data

Results flagged for a closer look

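A library was singled out where its gap to the nearest of its group's 4 libraries was, as a share of the group's range, above Dixon's 95% critical value. This was examined for 222 groups of 4 libraries, covering every named gene and the library measures, and 21 groups met it, where chance gives about 5%. Because the named genes were partly picked by hand, the same was counted over all 77 genes that passed, where 17 of 154 groups met it. In 7 of those 17 the library was Tβ4 library 1, on the high side.

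Among the named genes, Tβ4 library 1 stood high in Ahnak (1240.1 normalized counts), Plagl1 (784), Col5a2 (580.4), Igfbp7 (335), Abcc9 (227), Mgp (217), Myl9 (102), Irf1 (57.3) and Lif (34.1). Tβ4 library 2 stood high in Nr4a3 (7038) and Ajap1 (688) and low in Cybb (40.9). Tβ4 library 3 stood high in Sla (839) and low in Yap1 (353). Tβ10 library 4 stood high in Camk2b (8509.7), Grin1 (2633) and Dclk3 (396), Tβ10 library 3 in Npas4 (294) and Itgax (9.01), Tβ10 library 2 in Itgav (676), and Tβ10 library 1 in Mgp (0.536, against 0 in the other 3). Tβ4 library 1 also had the highest share of reads in mitochondrial ribosomal RNA, 24.3%, and its part in these values was not tested.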

How the results depend on the processing

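All 77 genes kept their direction wherever they were tested, with 71 of them tested when a Tβ4 library was left out. For most settings this was fixed in advance, because none of the 77 overlapped between the groups. Leaving out, adding or weighting libraries, the block, the pseudocount and the filter could not turn a sign. Only rescaling, the count models and the covariates could have done so. The count did not stay. It was 326 with all 16 libraries in 1 fit, 563 with DESeq2, 1377 with array weights, 865 with the slope of level on exon length as a covariate, 152 at an adjusted p under 0.1, and 1 with the mitochondrial ribosomal RNA share as a covariate. Leaving out 1 library gave 1 to 373. With edgeR it was 83, with pseudocounts of 0.1 and 10 it was 72 and 79, without a filter 73, with TMM 79, with library size scaling 60 and over 1 on the log2 scale 63. The causes were not tested. The split of higher against lower calls moved to 254 and 72 with 16 libraries, 44 and 16 with library size scaling, 883 and 494 with array weights, and 611 and 254 with the slope covariate.

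With the replicate number as a block 1 gene passed. The labels do not say that numbers mark a shared culture, and same-numbered libraries did not deviate together (correlations -0.14, -0.36, -0.05 and 0.02), so the numbers are not taken to pair the samples.

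The Tmsb4x difference turned negative with library size scaling (-0.0715), the mitochondrial covariate (-0.61) and the slope covariate (-0.0166), and ranged from -0.10 without Tβ10 library 1 to 0.40 when 1 library was left out, at -0.05 and -0.04 without Tβ4 library 1 or 3. Tmsb10 turned positive with edgeR (0.0236), DESeq2 (0.0131) and array weights (0.0292), and without Tβ10 library 2 (0.16) or Tβ4 library 2 (0.30), with a low of -0.26. Rps15 turned to -0.14 with the mitochondrial covariate. The difference in the mitochondrial ribosomal RNA share, 8.11 percentage points, was 5.11 without Tβ4 library 1 and 10.5 without Tβ4 library 2. The difference in genes detected turned to -9.67 without Tβ10 library 2 and -668 without Tβ4 library 1, and reached 1746 without Tβ4 library 4. That in reads turned to -995328, -3402430 and -2962210 without Tβ10 library 2, Tβ10 library 4 or Tβ4 library 3, and reached 5468270 without Tβ10 library 1. That in the length slope turned to 0.0051, 0.0037 and 0.0026 without Tβ10 library 1, Tβ4 library 1 or Tβ4 library 3, and reached -0.061 without Tβ4 library 2. One read is worth 0.536 to 1.71 normalized counts, which limits genes near 0 such as Mgp with Tβ10.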
